A study of Mus musculus with 24 samples.

Results

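The genes described here encode the translation initiation factors eIF1 to eIF6 and the proteins named with them, the proteins that bring a ribosome to the start codon of an mRNA. Every gene in the expression table whose symbol begins with Eif1 to Eif6 was taken, which gave 55 of 15582 genes. Of these, 53 passed the filter on low values. Eif4e1b, an oocyte relative of the cap-binding protein, was listed at 0 in all 24 libraries, and Eif5a2, the second eIF5A gene, stayed between 0.030 and 0.13 RPKM. Liver RNA came from male B6C3F1 mice, labelled as 4 weeks old, whose drinking water held dichloroacetic acid (DCA) at 0, 1, 2 or 3.5 g/L for 6 days. The 0 g/L group is called control here, and each dose has 6 libraries from frozen tissue of mixed liver lobes. The labels name no mutation or transgene, and dose is the only stated difference between the groups. DCA is a by-product of water chlorination that blocks pyruvate dehydrogenase kinase, and it causes liver tumours in mice after long exposure.

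A round of initiation starts with eIF2, which carries the initiator tRNA and GTP to the small ribosomal subunit together with eIF1, eIF1A, eIF3 and eIF5. The eIF4F group (eIF4E on the cap, the scaffold eIF4G and the helicase eIF4A) recruits the mRNA, eIF5B joins the large subunit, and eIF2B reloads eIF2 with GTP for another round. Both main brakes act on these proteins: kinases that phosphorylate eIF2 alpha block eIF2B, and the 4E-binding proteins hold eIF4E away from eIF4G, with both brakes set largely by phosphorylation. Transcript levels therefore do not show how active these proteins were.

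Values are RPKM, reads scaled by gene length and library size, so levels of different genes can be compared on that scale. A log2 fold is the difference of mean log2(RPKM + 1) between 2 doses, which understates changes of genes at low levels. "Rose", "fell" and "called" are used for an adjusted p below 0.05, from limma with Benjamini-Hochberg adjustment over all 6540 tested genes. The deposited table stops at Olfr272, so all tested genes are those with symbols up to that line. The labels do not say in words that each library came from its own mouse, so the p-values measure the spread between these libraries. The depth of the libraries, estimated from the steps between low values, ran from 24300000 to 28900000 reads. Each title also holds an L followed by 1, 2 or 3, called the title tag here, and no label explains it. All control libraries are L1, the 1 g/L libraries are 3 L1 and 3 L2, all 2 g/L libraries are L2 and all 3.5 g/L libraries are L3. At 3.5 g/L the tag and the dose cannot be told apart. The 2 g/L libraries share no tag with control or with 3.5 g/L, and only the 1 g/L libraries link L1 and L2.

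Of the 55 genes, 43 have 1 or more entries in the RefSeq promoter set (build GRCm38.p6). Each entry is a window from 250 bases before to 50 bases after a start of the gene. Some genes have several windows, with 6 for Eif5a, 4 for Eif4enif1 and 3 for Eif4e2. A gene was counted when any of its windows held the word, so genes with several windows had more chances to match. The ETS-type word CCGGAAG, read on both strands, was found for 16 of the 43 genes (37.2%). It was found for 9.93% of all 27025 genes with a window and 20.1% of the 4907 tested genes with one. The E-box CACGTG, which reads the same on both strands, was found for 10 genes (23.3%), against 8.09% of all genes and 12.1% of tested genes. The cAMP response element TGACGTCA was found for 0 of the 43 genes, against 2.03% of all genes and 3.44% of tested genes. The NRF1-type palindrome (GCGCA followed by its reverse complement) was found for 1 gene (2.33%), against 1.07% of all genes and 2.24% of tested genes. TATAAA, on either strand, was found for 4 genes (9.3%), against 15.7% of all genes and 9.58% of tested genes. A match is a stretch of letters and was not shown to be bound. The stretches printed next run from 100 bases before to 20 bases after the RefSeq start. They were chosen to set genes with large folds (Eif1, Eif5, Eif2b4) and eIF3 subunits that rose (Eif3d, Eif3m) beside an eIF3 subunit that was not called (Eif3f). Capitals mark a match to one of the words above, the rest is in lower case, and no match overlaps another.
Eif1 (chr11:100319849-100319968, plus strand): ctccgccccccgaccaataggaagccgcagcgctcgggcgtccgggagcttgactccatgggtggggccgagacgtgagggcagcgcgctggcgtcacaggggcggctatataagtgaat
Eif5 (chr12:111538001-111538120, plus strand): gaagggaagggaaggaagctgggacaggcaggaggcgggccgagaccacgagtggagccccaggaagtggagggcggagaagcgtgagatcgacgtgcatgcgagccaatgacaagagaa
Eif2b4 (chr5:31193120-31193239, minus strand): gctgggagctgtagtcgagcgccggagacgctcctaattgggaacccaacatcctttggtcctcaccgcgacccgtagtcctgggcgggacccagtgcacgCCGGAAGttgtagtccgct
Eif3d (chr15:77970805-77970924, minus strand): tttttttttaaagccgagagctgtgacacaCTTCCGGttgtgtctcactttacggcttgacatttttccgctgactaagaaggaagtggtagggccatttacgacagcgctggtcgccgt
Eif3m (chr2:105017008-105017127, minus strand): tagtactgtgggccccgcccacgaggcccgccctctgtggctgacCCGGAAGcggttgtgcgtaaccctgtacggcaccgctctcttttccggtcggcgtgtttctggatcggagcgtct
Eif3f (chr7:108934315-108934434, plus strand): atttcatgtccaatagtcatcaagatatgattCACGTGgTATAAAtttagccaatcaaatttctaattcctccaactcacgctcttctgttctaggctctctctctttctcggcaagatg
Eif2b4, Eif3d and Eif3m each hold the ETS-type word in the printed stretch, and Eif3f holds an E-box followed closely by TATAAA. Eif1 and Eif5 hold none of the 5 words there. The full windows of Eif1b, Eif2ak1 and Eif4ebp2, called at no dose on the deposited RPKM, held the ETS-type word. Those of Eif3f and Eif4g3, also called at no dose, did not. Of genes that rose at every dose, Eif2b4 and Eif5a held it, whereas Eif2a, Eif2s1, Eif3a, Eif3j1, Eif4b and Eif5 did not. The E-box was found for Eif1b and Eif3f, called at no dose, and for Eif3a and Eif5a, which rose at every dose. Whether a word went with the change of its gene was not tested.

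In control livers the transcripts of these factors covered a wide range of levels. Eif4a1, the helicase of eIF4F, was highest at 64.04 ± 5.48 RPKM (SD, n = 6), followed by Eif4g1 at 55.9 ± 0.963 RPKM, Eif5a at 49.5 ± 2.67 RPKM and Eif1 at 42.8 ± 5.39 RPKM. The 12 eIF3 subunits other than Eif3j1 and Eif3j2 lay between 12.0 RPKM (Eif3k) and 28.6 RPKM (Eif3c) on average. The eIF2B subunits were lower, from 1.20 ± 0.141 RPKM for Eif2b3 to 8.44 ± 0.656 RPKM for Eif2b5. Eif4e itself averaged 6.02 ± 0.610 RPKM, well under the summed level of its binding proteins described further on. At the low end stood Eif2ak4 at 1.55 ± 0.0988 RPKM and Eif4e3 at 0.641 ± 0.0915 RPKM.

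**Figure D1:**
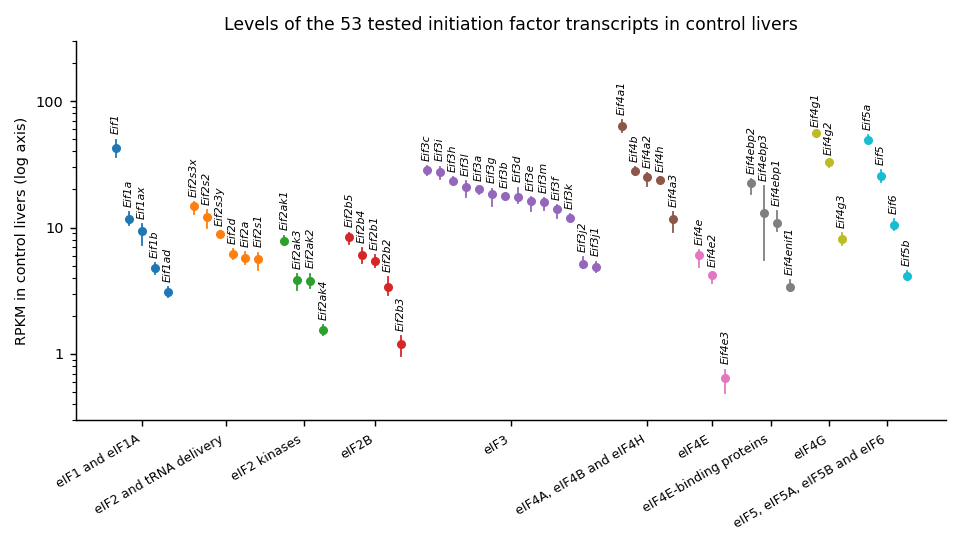
Mean RPKM in the 6 control livers for each of the 53 tested genes, on a log axis, grouped by complex; vertical lines run from the lowest to the highest library. Eif4a1 stands highest at 64.0 RPKM and Eif4e3 lowest at 0.641 RPKM, and Eif4ebp3 has the longest line, from 5.53 to 21.1 RPKM.

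The transcripts of most initiation factors were higher in DCA livers, first at a few genes and then across nearly every complex. At 1 g/L, 12 of the 53 tested genes rose and 0 fell, where 8.35% of all tested genes rose and 3.03% fell. At 2 g/L, 43 rose and 2 fell (Eif2ak3 and Eif4ebp3), where 41.9% of all tested genes rose and 10% fell. At 3.5 g/L, 37 rose and 1 fell (Eif4ebp3), where 38.6% of all tested genes rose and 12.9% fell. The libraries of 6 genes at 1 g/L, 36 genes at 2 g/L and 21 genes at 3.5 g/L lay wholly above the control range, where 3.01%, 20.2% and 22% of all tested genes did so. Libraries lay wholly below the control range for 0 of the 53 genes at each dose, where 1.61%, 3.1% and 5.86% of all tested genes did so. The median log2 fold of the 53 was 0.11, 0.32 and 0.23 over the 3 doses in turn, beside 0.05, 0.12 and 0.10 over all tested genes. In whole liver, a change in the share of a cell type and a change in RNA per cell cannot be told apart.

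The size of these counts depended on how libraries were scaled. Scaling by the median ratio of genes removed the shift of all tested genes, 0.12 on the log2 scale at 2 g/L. With it removed, the median log2 fold of the 53 genes was 0.05, 0.16 and 0.10 over the 3 doses in turn. Then 8 rose and 2 fell at 1 g/L, 30 rose and 5 fell at 2 g/L, and 22 rose and 8 fell at 3.5 g/L. Over all tested genes 3.56% rose and 5.2% fell at 1 g/L, 21.3% rose and 21.1% fell at 2 g/L, and 23.5% rose and 23.3% fell at 3.5 g/L. Quantile normalization gave 10 rising and 2 falling at 1 g/L, 28 and 5 at 2 g/L, and 19 and 9 at 3.5 g/L. On that scale 5.26% of all tested genes rose and 4.77% fell at 1 g/L, 20.8% rose and 20% fell at 2 g/L, and 21.9% rose and 22.1% fell at 3.5 g/L. Under the deposited scale and both rescalings alike, 28 genes rose at 2 g/L, 18 rose at 3.5 g/L and 17 rose at both: Eif1ax, Eif2a, Eif2b3, Eif2b4, Eif2s1, Eif2s3x, Eif3a, Eif3d, Eif3g, Eif3j1, Eif3j2, Eif3k, Eif3m, Eif4g2, Eif5, Eif5a and Eif6. Eif4ebp3 fell at both of these doses under all 3 scales. Of the genes that rose on the deposited scale, 13 were not called higher under either rescaling at 2 g/L: Eif1, Eif2ak2, Eif2b1, Eif2b2, Eif2b5, Eif2s3y, Eif3i, Eif4b, Eif4e2, Eif4ebp1, Eif4enif1, Eif4g1 and Eif5b. At 3.5 g/L 14 were not: Eif2ak4, Eif2b1, Eif2b2, Eif2d, Eif2s2, Eif3b, Eif3c, Eif3l, Eif4a2, Eif4e2, Eif4ebp1, Eif4g1, Eif4h and Eif5b. One rescaling alone lost Eif1ad and Eif4a2 at 2 g/L, and Eif1ad, Eif3e, Eif4a1, Eif4b and Eif4e at 3.5 g/L. At 1 g/L Eif2b4 and Eif5a were called under neither rescaling, and Eif2a and Eif4b under 1 of them.

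The counts also differed when the title tag entered the fit. With the tag as a term in the fit, 1 gene (Eif6) rose and 0 fell at 1 g/L, where 1.22% of all tested genes rose and 1.41% fell. At 2 g/L 14 rose and 1 fell (Eif4ebp3), where 10.6% of all tested genes rose and 4.31% fell. By complex these 14 were 4 eIF3 genes, 2 each of the eIF1, eIF2, eIF2B and eIF5 to eIF6 groups, and 1 each of the eIF4A and eIF4G groups. The eIF2 kinases, the eIF4E genes and the binding proteins had 0 rising. With the tag, the median log2 fold of the 53 genes was 0.10 at 1 g/L and 0.25 at 2 g/L, against 0.11 and 0.32 without it. Over all tested genes it was 0.02 and 0.06 with the tag, against 0.05 and 0.12 without it. The median SE of the 53 was 0.0767 and 0.1085 with the tag, against 0.0627 without it, so fewer calls do not mean equally smaller folds. Among L1 libraries alone, with 3 at 1 g/L and 6 controls, 1 gene (Eif5) rose, where 0.183% of all tested genes did. At 1 g/L the median log2 difference of the 53 genes from control was 0.01 to 0.16 in the 3 L1 libraries and 0.04 to 0.23 in the 3 L2 libraries. Levels of cell type markers moved over the same doses. The summed level of 6 hepatocyte markers (Alb, Apoa1, Apob, Cps1, Hnf4a and F2) was 22849 to 29356 in control livers, 20585 to 25582 at 1 g/L, 16319 to 25248 at 2 g/L and 17202 to 22616 at 3.5 g/L, in RPKM, with 2 of the 6 lower at 1 g/L, 5 at 2 g/L, and 5 lower and 1 higher at 3.5 g/L. Of 6 Kupffer cell markers, 5 fell at 3.5 g/L, where their sum was 32.6 to 48.5 RPKM, against 52.4 to 73.7 RPKM in control livers. All 5 tested erythroid markers fell at 2 g/L and 4 fell at 3.5 g/L, and their list summed to 246 to 820.3 in control livers, 301 to 523 at 1 g/L, 191 to 422 at 2 g/L and 238 to 498 at 3.5 g/L. Of 6 endothelial markers 1 rose at 1 g/L and 1 fell at 3.5 g/L, and of 5 stellate cell markers 1 rose at 2 and at 3.5 g/L. Under the median-ratio and quantile scales in turn, 3 and 4 endothelial markers fell at 2 g/L and 4 fell at 3.5 g/L on both, while 2 stellate markers fell at 2 g/L on both and 1 and 2 fell at 3.5 g/L, with 0 rising. Both rescalings also called 1 Kupffer cell marker lower at 2 g/L and all 5 erythroid markers lower at 3.5 g/L. Markers of lymphocytes and neutrophils were below the filter, and no marker in the table was at 0 in all libraries. The part of these markers and of the tag in the initiation factor levels was not tested.

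**Figure D2:**
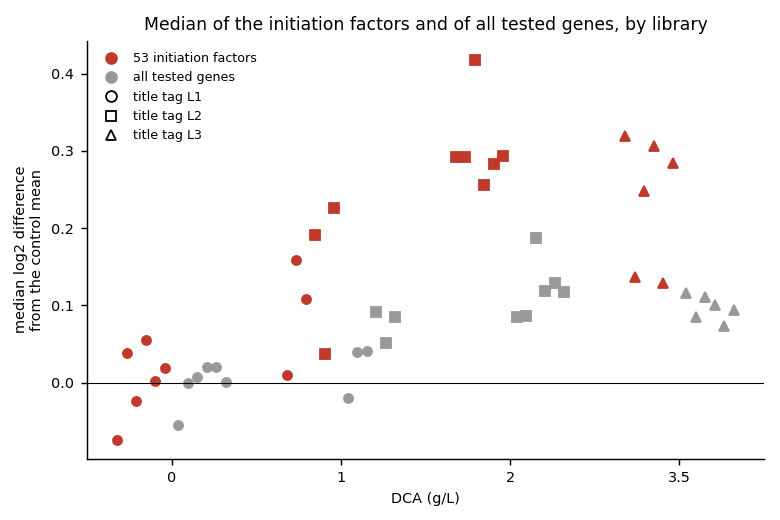
Each point is 1 library: the median over the 53 initiation factors (left of each pair, red) and over all 6540 tested genes (right, grey) of the log2 difference from the control mean, by DCA dose, with the title tag as the marker shape. The factors lie at −0.07 to 0.05 in control livers, 0.01 to 0.23 at 1 g/L, 0.26 to 0.42 at 2 g/L and 0.13 to 0.32 at 3.5 g/L, while all genes reach at most 0.19; the size of the shift shrinks when libraries are rescaled, as given in the text.

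**Figure D3:**
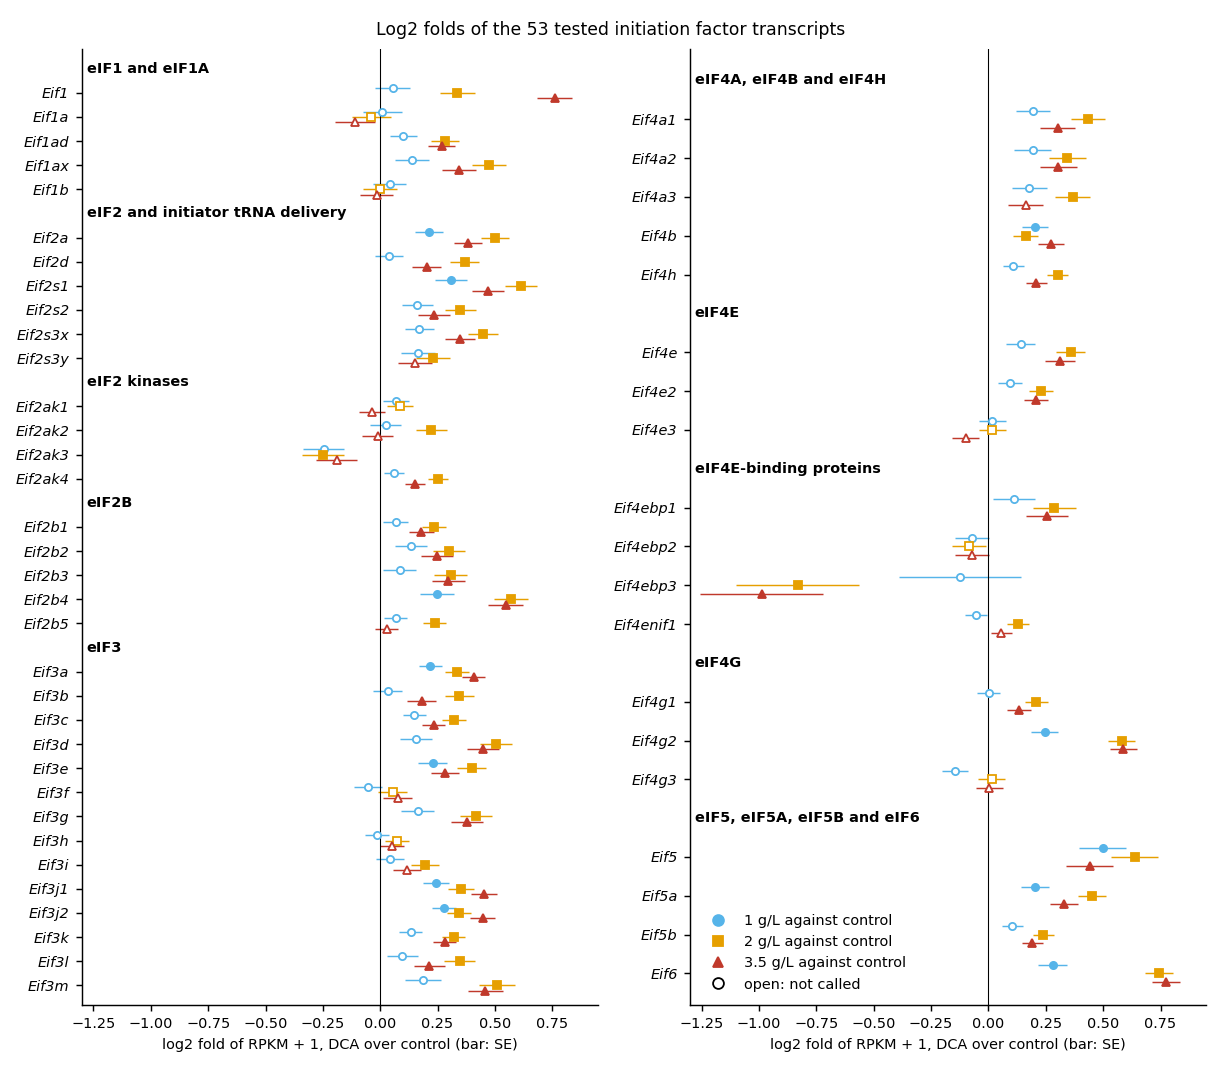
Log2 folds of RPKM + 1 with SE for each dose over control, by complex; filled markers are genes with an adjusted p below 0.05, open markers the rest. Most filled markers at 2 and 3.5 g/L lie to the right of 0, Eif4ebp3 lies farthest left at −0.83 and −0.99, and Eif6 and Eif1 lie farthest right at 3.5 g/L at 0.77 and 0.76; under rescaling more genes lie left of 0, as counted in the text.

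Eif6, Eif5 and Eif5a stood among the factors with the clearest rises. Of the 4 tested genes in the group of eIF5, eIF5A, eIF5B and eIF6, 3 rose at 1 g/L and all 4 at 2 and at 3.5 g/L. At the upper doses 3 of the 4 still rose under both rescalings. Counts by complex, here and below, stand beside 8.35%, 41.9% and 38.6% of all tested genes rising at 1, 2 and 3.5 g/L on the deposited scale. Under the median-ratio and quantile scales the rising shares were 21.3% and 20.8% at 2 g/L, and 23.5% and 21.9% at 3.5 g/L. The falling shares were 21.1% and 20%, then 23.3% and 22.1%. Eif6 (chr2:155819832-155826925, minus strand, positions from GENCODE M21 on GRCm38, the same assembly as mm10) encodes the factor that keeps free large ribosomal subunits from joining too early and helps make them. Eif6 measured 9.48 to 11.7 RPKM (median 10.4) in control livers, 11.8 to 14.4 (12.6) at 1 g/L, 16.7 to 19.6 (18.3) at 2 g/L and 17.1 to 19.8 (18.9) at 3.5 g/L. The ranges at 1, 2 and 3.5 g/L each lay above the control range, and those at 2 and 3.5 g/L also lay above that at 1 g/L. Its log2 fold was 0.28 (SE 0.06, adjusted p = 0.00598) at 1 g/L, 0.74 (SE 0.06, adjusted p = 3.48e-09) at 2 g/L and 0.77 (SE 0.06, adjusted p = 6.07e-10) at 3.5 g/L. An antisense gene, Gm16098, shares 138 exon bases with Eif6.

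Eif5 (chr12:111538016-111546752, plus strand) encodes the protein that makes eIF2 hydrolyse its GTP once a start codon is found. Its level was 22.96 to 28.5 RPKM (median 25.9) in control livers, 32.1 to 40.3 (37.01) at 1 g/L, 34.01 to 46.2 (42.1) at 2 g/L and 28.01 to 47.2 (35.2) at 3.5 g/L. At 1 and 2 g/L all libraries lay above the control range, whereas at 3.5 g/L the spread was wide and the lowest library reached into it. Eif5 had a log2 fold of 0.50 (SE 0.10, adjusted p = 0.00342) at 1 g/L, 0.64 (SE 0.10, adjusted p = 1.99e-05) at 2 g/L and 0.44 (SE 0.10, adjusted p = 0.000864) at 3.5 g/L. Eif5a, whose hypusine-bearing product acts in elongation and termination despite its name, measured 46.6 to 53.6 RPKM (median 49.3) in control livers, 48.3 to 61.5 (58.2) at 1 g/L, 64.9 to 72.8 (68.1) at 2 g/L and 56.1 to 70.3 (63.2) at 3.5 g/L. Only the 1 g/L range of Eif5a overlapped the control range. Its log2 fold was 0.20 (SE 0.06, adjusted p = 0.0359) at 1 g/L, 0.45 (SE 0.06, adjusted p = 3.03e-06) at 2 g/L and 0.33 (SE 0.06, adjusted p = 0.000106) at 3.5 g/L, and the 1 g/L call was lost when any 1 of 9 libraries was left out. Eif5b, the GTPase of subunit joining, had 3.87 to 4.54 RPKM (median 4.14) in control livers, 3.98 to 4.81 (4.74) at 1 g/L, 4.88 to 5.27 (5.08) at 2 g/L and 4.48 to 5.38 (4.86) at 3.5 g/L. Its range stood apart from control at 2 g/L and overlapped it at 3.5 g/L, with log2 folds of 0.24 (SE 0.05, adjusted p = 0.000156) and 0.19 (SE 0.05, adjusted p = 0.00119). Eif5b shares 1643 exon bases with Rev1 on the other strand, and use of strand in the counting was not given in the sources used here.

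**Figure D4:**
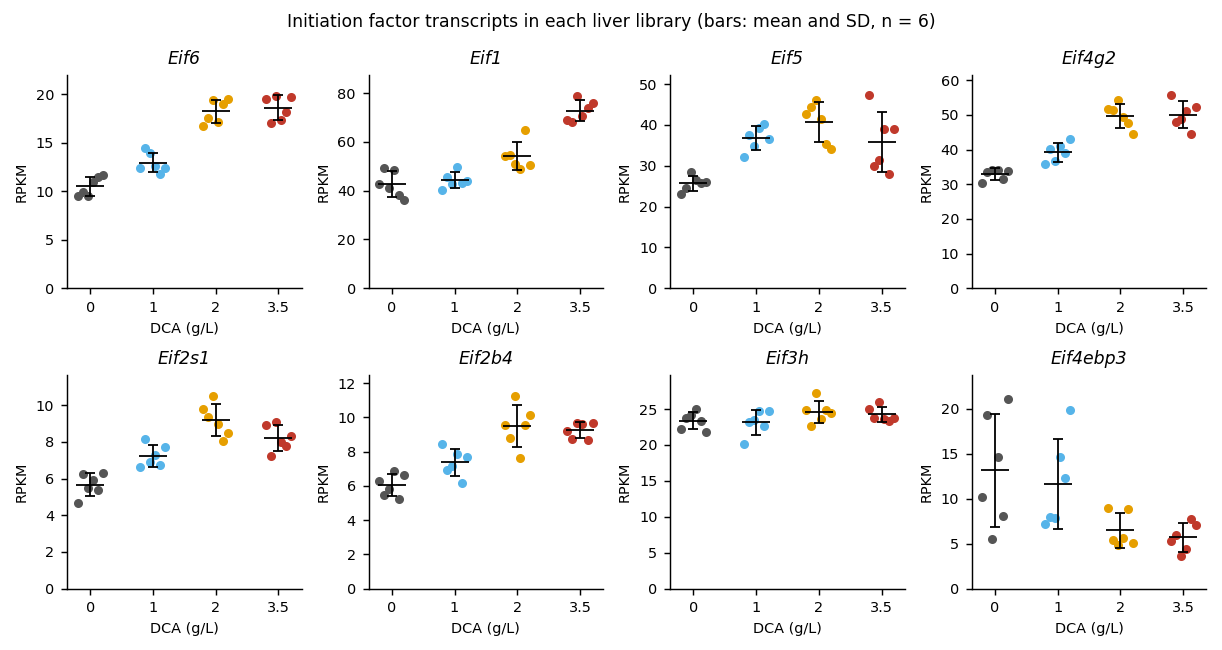
RPKM of 8 initiation factor genes in each of the 24 libraries by DCA dose in g/L, with the mean and SD of 6 libraries as bars; axes start at 0. The 2 and 3.5 g/L ranges of Eif6 and of Eif4g2 overlap, Eif1 reaches 68.3 to 79.0 RPKM at 3.5 g/L, Eif3h stays within 20.1 to 27.2 RPKM, and Eif4ebp3 spreads widely in control livers.

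Among the eIF1 and eIF1A genes, 0 of 5 rose at 1 g/L and 3 rose at 2 and at 3.5 g/L, where 8.35%, 41.9% and 38.6% of all tested genes rose. Under the median-ratio and quantile scales 2 and 1 rose at 2 g/L, where 21.3% and 20.8% of all tested genes rose. At 3.5 g/L 3 and 2 rose on these scales, where 23.5% and 21.9% of all tested genes did. Eif1 (chr11:100319885-100322096, plus strand) encodes the factor that keeps the scanning ribosome open and rejects poor start codons. Its level was 36.03 to 49.5 RPKM (median 42.1) in control livers, 40.1 to 49.8 (43.7) at 1 g/L, 48.97 to 65.01 (52.6) at 2 g/L and 68.3 to 78.99 (72.2) at 3.5 g/L. At 3.5 g/L every library lay above all libraries of the other doses, while at 2 g/L the lowest library was still inside the control range. The log2 fold of Eif1 was 0.05 (SE 0.08, adjusted p = 0.674) at 1 g/L, 0.34 (SE 0.08, adjusted p = 0.000846) at 2 g/L and 0.76 (SE 0.08, adjusted p = 2.15e-08) at 3.5 g/L. The call at 2 g/L was lost under both rescalings (adjusted p = 0.0775 on the median-ratio and 0.094 on the quantile scale), and the call at 3.5 g/L held under both. Against 2 g/L, the log2 fold at 3.5 g/L was 0.42 (SE 0.08, adjusted p = 0.00105). Eif1b, its close paralogue, lay between 3.78 and 5.54 RPKM over all 24 libraries and was called at no dose.

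Eif1ax, the X-linked eIF1A gene whose product works with eIF1 in start codon choice, measured 7.32 to 10.7 RPKM (median 9.60) in control livers, 9.77 to 11.4 (10.3) at 1 g/L, 11.7 to 15.2 (13.4) at 2 g/L and 10.4 to 13.03 (12.3) at 3.5 g/L. Only at 2 g/L did its range clear that of control. The log2 fold of Eif1ax was 0.47 (SE 0.07, adjusted p = 1.72e-05) at 2 g/L and 0.34 (SE 0.07, adjusted p = 0.000492) at 3.5 g/L. Eif1a, a near-identical gene on chromosome 18, was called at no dose on the deposited scale, with log2 folds of −0.04 (SE 0.09) and −0.11 (SE 0.09) at 2 and 3.5 g/L, and reads could be split between both genes; both rescalings called Eif1a lower at 3.5 g/L. Eif1ad, a nuclear protein with an eIF1A-like domain, had 2.80 to 3.38 RPKM (median 3.08) in control livers, 3.05 to 3.86 (3.28) at 1 g/L, 3.63 to 4.47 (3.94) at 2 g/L and 3.61 to 4.38 (3.81) at 3.5 g/L. Both upper doses lay above the control range, with log2 folds of 0.28 (SE 0.06, adjusted p = 0.000399) and 0.27 (SE 0.06, adjusted p = 0.000585), and both calls held under the median-ratio scale but not under quantile normalization. Eif1ad shares 428 exon bases with Banf1 on the other strand, and Banf1 averaged 7.71 RPKM at 2 g/L and 7.34 RPKM at 3.5 g/L, against 5.30 RPKM in control livers.

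Most genes of the eIF2 subunits and the other carriers of initiator tRNA rose at the upper doses. Of 6 genes, 2 rose at 1 g/L, all 6 at 2 g/L and 5 at 3.5 g/L, and under both rescalings 5 rose at 2 g/L and 3 at 3.5 g/L. Eif2s1 (chr12:78861819-78887010, plus strand) encodes eIF2 alpha, the subunit that the stress kinases phosphorylate. Eif2s1 measured 4.64 to 6.32 RPKM (median 5.70) in control livers, 6.60 to 8.17 (7.08) at 1 g/L, 8.06 to 10.5 (9.16) at 2 g/L and 7.23 to 9.07 (8.17) at 3.5 g/L. At each dose the libraries lay above the control range. The log2 fold of Eif2s1 was 0.31 (SE 0.07, adjusted p = 0.00696) at 1 g/L, 0.61 (SE 0.07, adjusted p = 2.73e-07) at 2 g/L and 0.47 (SE 0.07, adjusted p = 5.65e-06) at 3.5 g/L.

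Eif2a, a separate protein that can bring initiator tRNA without eIF2, had 5.13 to 6.43 RPKM (median 5.77) in control livers, 5.62 to 7.43 (7.17) at 1 g/L, 7.93 to 9.77 (8.47) at 2 g/L and 7.29 to 8.19 (7.89) at 3.5 g/L. Its range overlapped control at 1 g/L but not at 2 or 3.5 g/L. Log2 folds of Eif2a were 0.21 (SE 0.06, adjusted p = 0.0266), 0.50 (SE 0.06, adjusted p = 8.00e-07) and 0.38 (SE 0.06, adjusted p = 1.56e-05) over these doses, and the 1 g/L call was lost when any 1 of 6 libraries was left out. Eif2s3x, the X-linked gene of the GTP-binding gamma subunit, measured 12.8 to 15.8 RPKM (median 14.8) in control livers, 14.1 to 18.4 (16.97) at 1 g/L, 18.8 to 23.4 (19.9) at 2 g/L and 16.6 to 20.3 (19.3) at 3.5 g/L. The 2 and 3.5 g/L libraries stood above all controls, with log2 folds of 0.45 (SE 0.06, adjusted p = 5.26e-06) and 0.35 (SE 0.06, adjusted p = 8.42e-05). Its Y-linked copy Eif2s3y rose at 2 g/L and was called at no other dose, with a log2 fold of 0.23 (SE 0.07, adjusted p = 0.0125), and that value turned to −0.04 with the title tag in the fit. The sequences of Eif2s3x and Eif2s3y are close, so shared reads could be split between them. Eif2d, which delivers tRNA in a GTP-independent way and also acts in ribosome recycling, had 5.64 to 6.73 RPKM (median 6.13) in control livers, 5.79 to 6.88 (6.30) at 1 g/L, 7.53 to 9.68 (7.97) at 2 g/L and 6.19 to 8.50 (7.16) at 3.5 g/L. It stood clear of control only at 2 g/L, with log2 folds of 0.37 (SE 0.06, adjusted p = 4.19e-05) and 0.20 (SE 0.06, adjusted p = 0.00921) at 2 and 3.5 g/L. Eif2s2, the beta subunit, rose at the same doses with log2 folds of 0.35 (SE 0.07) and 0.23 (SE 0.07).

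The 4 kinases that phosphorylate eIF2 alpha did not move together. On the deposited scale 2 rose and 1 fell at 2 g/L, where 41.9% of all tested genes rose and 10% fell. At 3.5 g/L 1 rose, where 38.6% of all tested genes did. Under the median-ratio scale 1 rose and 1 fell at 2 g/L, where 21.3% of all tested genes rose and 21.1% fell. At 3.5 g/L 2 fell on that scale and 3 under quantile normalization, where 23.3% and 22.1% of all tested genes fell. Eif2ak3 (chr6:70844515-70905245, plus strand), which encodes PERK, the kinase of the endoplasmic reticulum stress response, measured 3.18 to 4.25 RPKM (median 3.87) in control livers, 2.58 to 3.90 (3.00) at 1 g/L, 2.36 to 3.95 (3.19) at 2 g/L and 2.41 to 3.59 (3.34) at 3.5 g/L. All 3 dosed ranges overlapped that of control. Its log2 fold was −0.25 (SE 0.09, adjusted p = 0.0784) at 1 g/L, −0.25 (SE 0.09, adjusted p = 0.0257) at 2 g/L and −0.19 (SE 0.09, adjusted p = 0.0843) at 3.5 g/L. The call at 2 g/L was lost without control library 3 (adjusted p = 0.0599) and without 2 g/L library 74 (0.0764) or 77 (0.0693), while under both rescalings Eif2ak3 fell at all 3 doses.

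Eif2ak4 encodes GCN2, the kinase that senses uncharged tRNA, and had 1.42 to 1.69 RPKM (median 1.53) in control livers, 1.49 to 1.91 (1.61) at 1 g/L, 1.94 to 2.19 (2.01) at 2 g/L and 1.63 to 2.03 (1.83) at 3.5 g/L. It cleared the control range at 2 g/L only, with log2 folds of 0.25 (SE 0.04, adjusted p = 5.84e-05) and 0.15 (SE 0.04, adjusted p = 0.00583) at 2 and 3.5 g/L. Eif2ak2, the double-stranded RNA kinase PKR, measured 3.33 to 4.32 RPKM (median 3.81) in control livers, 3.52 to 4.15 (3.84) at 1 g/L, 3.67 to 5.73 (4.50) at 2 g/L and 3.43 to 4.05 (3.66) at 3.5 g/L. Its ranges overlapped control at every dose. It rose at 2 g/L, with a log2 fold of 0.22 (SE 0.07, adjusted p = 0.00861), and was lower at 3.5 than at 2 g/L, with a log2 fold of −0.23 (SE 0.07, adjusted p = 0.0285). Neither rescaling called Eif2ak2 higher at 2 g/L, and the step between 2 and 3.5 g/L was lost when any 1 of 6 libraries was left out. Eif2ak1, the haem-regulated kinase, had 7.34 to 8.61 RPKM (median 7.67) in control livers, 7.50 to 9.51 (8.14) at 1 g/L, 7.55 to 9.02 (8.29) at 2 g/L and 6.93 to 8.45 (7.46) at 3.5 g/L. Those ranges overlapped throughout, and log2 folds were 0.07 (SE 0.06, adjusted p = 0.442), 0.08 (SE 0.06, adjusted p = 0.216) and −0.03 (SE 0.06, adjusted p = 0.625), though the rescalings called it lower at 3.5 g/L.

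All 5 subunits of eIF2B, the exchange factor that reloads eIF2, rose at 2 g/L, 4 rose at 3.5 g/L and 1 rose at 1 g/L. Under both rescalings 2 rose at 2 g/L, where 21.3% and 20.8% of all tested genes rose on the median-ratio and quantile scales. At 3.5 g/L 2 rose and 1 fell under both, where 23.5% and 21.9% of all tested genes rose and 23.3% and 22.1% fell. Eif2b4 (chr5:31187558-31193430, minus strand), the delta subunit of the regulatory part, measured 5.24 to 6.89 RPKM (median 6.04) in control livers, 6.19 to 8.42 (7.42) at 1 g/L, 7.65 to 11.3 (9.57) at 2 g/L and 8.67 to 9.70 (9.42) at 3.5 g/L. Both upper doses lay above the control range. For Eif2b4 the log2 fold was 0.25 (SE 0.08, adjusted p = 0.0357) at 1 g/L, 0.57 (SE 0.08, adjusted p = 1.95e-06) at 2 g/L and 0.55 (SE 0.08, adjusted p = 2.19e-06) at 3.5 g/L, with the 1 g/L call lost when any 1 of 7 libraries was left out. Eif2b4 shares 204 exon bases with Snx17 on the other strand.

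Eif2b5, the catalytic epsilon subunit, had 7.35 to 9.11 RPKM (median 8.54) in control livers, 8.30 to 9.64 (8.86) at 1 g/L, 9.82 to 10.9 (10.002) at 2 g/L and 7.92 to 9.17 (8.85) at 3.5 g/L. The 2 g/L libraries lay above those of every other dose. Against control, its log2 fold was 0.24 (SE 0.05, adjusted p = 0.000399) at 2 g/L and 0.03 (SE 0.05, adjusted p = 0.646) at 3.5 g/L, and 3.5 over 2 g/L gave −0.21 (SE 0.05, adjusted p = 0.00981). The rise at 2 g/L was not called under either rescaling, and both called Eif2b5 lower than control at 3.5 g/L. Eif2b3, the gamma subunit that pairs with it, measured 0.965 to 1.38 RPKM (median 1.20) in control livers, 1.07 to 1.81 (1.26) at 1 g/L, 1.55 to 1.95 (1.68) at 2 g/L and 1.34 to 2.00 (1.76) at 3.5 g/L. Only the 2 g/L range stood apart from control. Log2 folds of Eif2b3 were 0.31 (SE 0.07, adjusted p = 0.00101) and 0.30 (SE 0.07, adjusted p = 0.0013) at 2 and 3.5 g/L. Eif2b1, the alpha subunit, had 4.84 to 6.04 RPKM (median 5.48) in control livers, 5.08 to 6.27 (5.93) at 1 g/L, 6.23 to 7.28 (6.50) at 2 g/L and 5.81 to 6.94 (6.30) at 3.5 g/L. Again the 2 g/L range alone cleared control, with log2 folds of 0.23 (SE 0.05, adjusted p = 0.000848) and 0.18 (SE 0.05, adjusted p = 0.00697) that neither rescaling called. Eif2b2, the beta subunit, rose with log2 folds of 0.30 (SE 0.07) at 2 g/L and 0.25 (SE 0.07) at 3.5 g/L.

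eIF3, the largest initiation factor and the bridge between the small ribosomal subunit and the mRNA, was represented by 14 genes for 13 subunits. At 1 g/L 4 of these genes rose, at 2 g/L 12 rose and at 3.5 g/L 11 rose. Under the median-ratio scale 4, 11 and 8 rose and 0, 1 and 1 fell, and under the quantile scale 4, 11 and 7 rose with the same numbers falling. Eif3a, the scaffold subunit, measured 18.6 to 21.2 RPKM (median 20.1) in control livers, 22.2 to 25.6 (23.05) at 1 g/L, 24.01 to 28.5 (25.1) at 2 g/L and 24.4 to 28.7 (27.1) at 3.5 g/L. Each dosed range lay above the control range. For Eif3a the log2 fold was 0.22 (SE 0.05, adjusted p = 0.00889) at 1 g/L, 0.33 (SE 0.05, adjusted p = 1.34e-05) at 2 g/L and 0.41 (SE 0.05, adjusted p = 6.30e-07) at 3.5 g/L.

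Eif3j1 and Eif3j2 are near-identical genes of the loosely bound subunit eIF3j, so their values may partly be the same reads. Eif3j1 had 4.46 to 5.37 RPKM (median 4.85) in control livers, 5.29 to 6.48 (6.14) at 1 g/L, 5.68 to 7.04 (6.60) at 2 g/L and 6.24 to 7.74 (6.96) at 3.5 g/L. Eif3j2 had 4.82 to 5.84 RPKM (median 5.09) in control livers, 5.74 to 7.04 (6.67) at 1 g/L, 6.17 to 7.46 (6.83) at 2 g/L and 6.79 to 7.71 (7.43) at 3.5 g/L. Both genes were above the control range at 2 and 3.5 g/L and overlapped it at 1 g/L. Log2 folds of Eif3j1 were 0.24 (SE 0.06, adjusted p = 0.00793), 0.35 (SE 0.06, adjusted p = 2.24e-05) and 0.45 (SE 0.06, adjusted p = 5.84e-07) over the 3 doses. Those of Eif3j2 were 0.28 (SE 0.05, adjusted p = 0.00227), 0.34 (SE 0.05, adjusted p = 1.72e-05) and 0.45 (SE 0.05, adjusted p = 3.31e-07). Eif3d, a subunit that can itself bind the cap of some mRNAs, measured 15.7 to 20.7 RPKM (median 16.7) in control livers, 17.3 to 20.8 (19.4) at 1 g/L, 21.9 to 28.5 (25.3) at 2 g/L and 21.4 to 25.7 (24.6) at 3.5 g/L. Libraries at 2 and 3.5 g/L lay above every control, with log2 folds of 0.50 (SE 0.07, adjusted p = 4.31e-06) and 0.45 (SE 0.07, adjusted p = 1.30e-05). An antisense gene, Gm17638, shares 2151 exon bases with Eif3d.

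The other eIF3 genes fell into unequal behaviours. Eif3b, Eif3c, Eif3e, Eif3g, Eif3k, Eif3l and Eif3m rose at 2 and 3.5 g/L, with log2 folds from 0.32 to 0.51 at 2 g/L and from 0.18 to 0.46 at 3.5 g/L, and Eif3e also rose at 1 g/L, a call lost when any 1 of 3 libraries was left out. The 3.5 g/L call of Eif3b was likewise lost when any 1 of 3 libraries was left out. Eif3i rose at 2 g/L and was called at no other dose, with a log2 fold of 0.19 (SE 0.06, adjusted p = 0.0109). Eif3f and Eif3h, which encode the MPN-domain subunits of the complex, were called at no dose on the deposited scale. Eif3h measured 21.8 to 24.96 RPKM (median 23.5) in control livers, 20.1 to 24.8 (23.4) at 1 g/L, 22.6 to 27.2 (24.7) at 2 g/L and 23.4 to 26.1 (23.8) at 3.5 g/L, ranges that overlap throughout. Its log2 fold was 0.07 (SE 0.05, adjusted p = 0.264) at 2 g/L and 0.05 (SE 0.05, adjusted p = 0.433) at 3.5 g/L, and both rescalings called Eif3h lower at these doses. Eif3f had log2 folds of 0.05 (SE 0.06, adjusted p = 0.486) and 0.08 (SE 0.06, adjusted p = 0.318), and neither rescaling called it.

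A ratio within a library does not change when each library is multiplied by 1 factor, as median-ratio scaling does, and ratios under quantile normalization were not computed. The summed RPKM of Eif3f and Eif3h, as a percent of the summed RPKM of the PCI-domain subunits Eif3a, Eif3c, Eif3e, Eif3k, Eif3l and Eif3m, was 28.3 to 35.4 (median 33.8) in control livers, 27.5 to 29.7 (median 28.5) at 1 g/L, 25.5 to 28.1 (median 26.03) at 2 g/L and 25.9 to 29.8 (median 27.5) at 3.5 g/L. The 2 g/L range lay below the control range, and the 1 and 3.5 g/L ranges reached into it. This ratio and the ratios in the following paragraphs were chosen after the values were seen and are given without a test.

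The helicase and its cofactors rose at the upper doses. Of Eif4a1, Eif4a2, Eif4a3, Eif4b and Eif4h, 1 rose at 1 g/L, all 5 at 2 g/L and 4 at 3.5 g/L. The upper doses gave 4 and 1 under the median-ratio scale, where 21.3% and 23.5% of all tested genes rose. Under the quantile scale they gave 3 and 1, where 20.8% and 21.9% of all tested genes rose. Eif4a1, the helicase that unwinds mRNA leaders, measured 56.7 to 70.9 RPKM (median 63.8) in control livers, 64.6 to 82.1 (74.5) at 1 g/L, 80.7 to 95.2 (85.7) at 2 g/L and 67.8 to 86.1 (82.7) at 3.5 g/L. Its libraries cleared the control range at 2 g/L but not at 3.5 g/L. Log2 folds of Eif4a1 were 0.43 (SE 0.07, adjusted p = 5.00e-05) and 0.30 (SE 0.07, adjusted p = 0.00169). Several small nucleolar RNAs lie within Eif4a1 and Eif4a2, and the libraries were made from total RNA. The same holds for Eif5, which shares 127 exon bases with Snora28, and for Eif4g2, which shares 150 with Gm23262, both on the same strand.

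Eif4h, a cofactor of the helicase, had 22.9 to 25.1 RPKM (median 23.3) in control livers, 24.6 to 26.5 (25.4) at 1 g/L, 26.9 to 30.6 (29.5) at 2 g/L and 24.6 to 29.3 (28.3) at 3.5 g/L. The 2 g/L range stood above control, while the 3.5 g/L range overlapped it. Its log2 folds were 0.30 (SE 0.05, adjusted p = 1.28e-05) and 0.21 (SE 0.05, adjusted p = 0.000575). Eif4b, the other helicase cofactor, measured 26.1 to 30.2 RPKM (median 27.8) in control livers, 30.9 to 34.4 (32.5) at 1 g/L, 29.3 to 32.8 (32.3) at 2 g/L and 30.2 to 38.1 (35.2) at 3.5 g/L. Libraries at 1 and 3.5 g/L lay above the control range and those at 2 g/L overlapped it. The log2 fold of Eif4b was 0.20 (SE 0.06, adjusted p = 0.0204), 0.16 (SE 0.06, adjusted p = 0.0175) and 0.27 (SE 0.06, adjusted p = 0.000252) over the 3 doses. At 2 g/L it changed sign under both rescalings, and the 1 g/L call was lost when either of 2 libraries was left out. Eif4a3, which serves the exon junction complex rather than initiation, had 9.27 to 13.2 RPKM (median 11.99) in control livers, 11.4 to 14.9 (13.6) at 1 g/L, 14.7 to 16.9 (14.99) at 2 g/L and 11.1 to 14.5 (13.6) at 3.5 g/L. It was above the control range at 2 g/L only, with log2 folds of 0.37 (SE 0.08, adjusted p = 0.000324) and 0.16 (SE 0.08, adjusted p = 0.0778). Eif4a2 rose at both upper doses, with log2 folds of 0.34 (SE 0.08) and 0.30 (SE 0.08).

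Eif4e encodes the protein that binds the mRNA cap. It measured 4.86 to 6.58 RPKM (median 6.24) in control livers, 5.77 to 7.49 (6.85) at 1 g/L, 7.27 to 8.65 (7.97) at 2 g/L and 7.13 to 8.50 (7.53) at 3.5 g/L. Both upper doses lay above the control range. The log2 fold of Eif4e was 0.14 (SE 0.06, adjusted p = 0.152) at 1 g/L, 0.36 (SE 0.06, adjusted p = 8.26e-05) at 2 g/L and 0.31 (SE 0.06, adjusted p = 0.000297) at 3.5 g/L. Both upper-dose calls held under the median-ratio scale, and under quantile normalization only the one at 2 g/L did. Eif4e2, a cap-binding relative that represses translation, had 3.62 to 4.46 RPKM (median 4.31) in control livers, 4.25 to 4.86 (4.59) at 1 g/L, 4.74 to 5.54 (5.03) at 2 g/L and 4.39 to 5.34 (5.21) at 3.5 g/L. It cleared the control range at 2 g/L, with log2 folds of 0.23 (SE 0.05, adjusted p = 0.000946) and 0.21 (SE 0.05, adjusted p = 0.00195) that neither rescaling called. Eif4e3 reached at most 0.775 RPKM and was called at no dose on the deposited scale, while the median-ratio scale called it lower at 3.5 g/L (log2 fold −0.15, adjusted p = 0.038).

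Of the 3 scaffold genes, Eif4g2 rose at 1 g/L and Eif4g2 and Eif4g1 rose at 2 and at 3.5 g/L, where 41.9% and 38.6% of all tested genes rose. Under the median-ratio scale 1 rose and 1 fell at 2 g/L, where 21.3% of all tested genes rose and 21.1% fell. At 3.5 g/L 1 rose on that scale, where 23.5% of all tested genes did, with 1 more falling under quantile normalization. Eif4g2 (chr7:111067750-111083030, minus strand) encodes DAP5, a scaffold that lacks the eIF4E-binding part of its relatives. Its level was 30.3 to 34.2 RPKM (median 33.8) in control livers, 35.8 to 43.1 (39.6) at 1 g/L, 44.5 to 54.3 (50.4) at 2 g/L and 44.7 to 55.8 (50.001) at 3.5 g/L. Every dosed range lay above the control range, and both upper doses lay above 1 g/L. The log2 fold of Eif4g2 was 0.24 (SE 0.06, adjusted p = 0.011) at 1 g/L, 0.58 (SE 0.06, adjusted p = 6.49e-08) at 2 g/L and 0.59 (SE 0.06, adjusted p = 2.19e-08) at 3.5 g/L. Eif4g1, the main scaffold, measured 54.7 to 57.1 RPKM (median 55.9) in control livers, 51.9 to 59.8 (55.8) at 1 g/L, 60.98 to 68.9 (65.3) at 2 g/L and 56.3 to 67.7 (61.3) at 3.5 g/L. Its libraries cleared control at 2 g/L only. Log2 folds of Eif4g1 were 0.00 (SE 0.05, adjusted p = 0.994), 0.21 (SE 0.05, adjusted p = 0.00153) and 0.13 (SE 0.05, adjusted p = 0.0312); neither upper-dose rise was called under the rescalings, and the value at 3.5 g/L turned to −0.013 under median-ratio factors and −0.0083 under quantile normalization. The 3.5 g/L call of Eif4g1 was also lost when any 1 of 6 libraries was left out. Eif4g3, a second scaffold of the same type, had 7.24 to 9.04 RPKM (median 7.88) in control livers, 6.82 to 8.04 (7.01) at 1 g/L, 7.48 to 9.13 (8.14) at 2 g/L and 7.16 to 8.82 (8.12) at 3.5 g/L. These ranges overlapped throughout, with log2 folds of 0.01 (SE 0.06, adjusted p = 0.854) and 0.00 (SE 0.06, adjusted p = 0.961) at 2 and 3.5 g/L, and both rescalings called it lower than control at 1 and 2 g/L, as quantile normalization did at 3.5 g/L too (adjusted p = 0.00873).

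The genes of the eIF4E-binding proteins, which compete with eIF4G for eIF4E, differed from one another. With Eif4enif1, 2 of the 4 rose and 1 fell at 2 g/L, where 41.9% of all tested genes rose and 10% fell. At 3.5 g/L 1 rose and 1 fell, where 38.6% of all tested genes rose and 12.9% fell. Under both rescalings 0 rose and 2 fell at each of these doses. On the median-ratio and quantile scales 21.1% and 20% of all tested genes fell at 2 g/L, and 23.3% and 22.1% at 3.5 g/L. Eif4ebp3 (chr18:36664060-36665917, plus strand) measured 5.53 to 21.1 RPKM (median 12.4) in control livers, 7.16 to 19.8 (10.1) at 1 g/L, 4.79 to 8.95 (5.54) at 2 g/L and 3.59 to 7.77 (5.59) at 3.5 g/L. The dosed ranges all overlapped control, where the libraries differed by a coefficient of variation of 47.6%. For Eif4ebp3 the log2 fold was −0.12 (SE 0.27, adjusted p = 0.792) at 1 g/L, −0.83 (SE 0.27, adjusted p = 0.0123) at 2 g/L and −0.99 (SE 0.27, adjusted p = 0.00351) at 3.5 g/L. Both upper-dose calls held when any 1 library was left out and under both rescalings. Eif4ebp3 shares 501 exon bases with AC115631.1 on the same strand, and its neighbour Ankhd1 averaged 6.41, 6.66, 6.67 and 6.39 RPKM from control to 3.5 g/L.

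Eif4ebp1 had 9.46 to 13.4 RPKM (median 10.6) in control livers, 9.70 to 13.5 (11.9) at 1 g/L, 10.8 to 15.5 (13.8) at 2 g/L and 11.1 to 14.2 (13.7) at 3.5 g/L. Its ranges overlapped those of control at each dose. Log2 folds of Eif4ebp1 were 0.11 (SE 0.09, adjusted p = 0.454), 0.29 (SE 0.09, adjusted p = 0.0131) and 0.26 (SE 0.09, adjusted p = 0.0251); neither rise was called under the rescalings, and the one at 3.5 g/L was lost when any 1 of 4 libraries was left out. Eif4ebp2, the highest of the 3 in control livers, measured 18.5 to 24.1 RPKM (median 23.3) in control livers, 18.7 to 23.5 (21.1) at 1 g/L, 18.5 to 23.6 (21.4) at 2 g/L and 19.1 to 23.5 (21.3) at 3.5 g/L. It overlapped control throughout, with log2 folds of −0.07 (SE 0.07, adjusted p = 0.547), −0.09 (SE 0.07, adjusted p = 0.342) and −0.07 (SE 0.07, adjusted p = 0.444), though both rescalings called it lower at 2 and 3.5 g/L. Eif4enif1, which carries eIF4E into the nucleus and to processing bodies, had 3.14 to 3.82 RPKM (median 3.32) in control livers, 3.04 to 3.59 (3.16) at 1 g/L, 3.49 to 4.08 (3.78) at 2 g/L and 3.17 to 3.77 (3.65) at 3.5 g/L. Those ranges overlapped as well, and the rise at 2 g/L, a log2 fold of 0.13 (SE 0.05, adjusted p = 0.0262), changed sign under both rescalings and was lost when any 1 of 4 libraries was left out.

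The summed RPKM of the 3 binding protein genes per RPKM of Eif4e was 6.39 to 8.98 (median 7.79) in control livers, 5.20 to 7.70 (median 6.89) at 1 g/L, 4.61 to 6.55 (median 4.89) at 2 g/L and 4.29 to 6.12 (median 5.18) at 3.5 g/L. At 3.5 g/L all libraries lay below the control range, and at 2 g/L 1 library reached into it. Eif2ak3 as a percent of the summed eIF2 subunit genes (Eif2s1, Eif2s2, Eif2s3x and Eif2s3y) was 7.42 to 11.7 (median 9.23) in control livers, 5.14 to 7.88 (median 6.20) at 1 g/L, 4.29 to 7.28 (median 5.50) at 2 g/L and 5.23 to 6.86 (median 6.39) at 3.5 g/L. Its 2 and 3.5 g/L ranges lay below the control range, and the 1 g/L range overlapped it. Eif6 over the median of the 53 genes in the same library was 0.908 to 1.02 (median 0.946) in control livers, 0.931 to 1.28 (median 1.06) at 1 g/L, 1.21 to 1.66 (median 1.31) at 2 g/L and 1.25 to 1.53 (median 1.46) at 3.5 g/L. Both upper doses were above every control, and the 1 g/L range overlapped that of control.

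**Figure D5:**
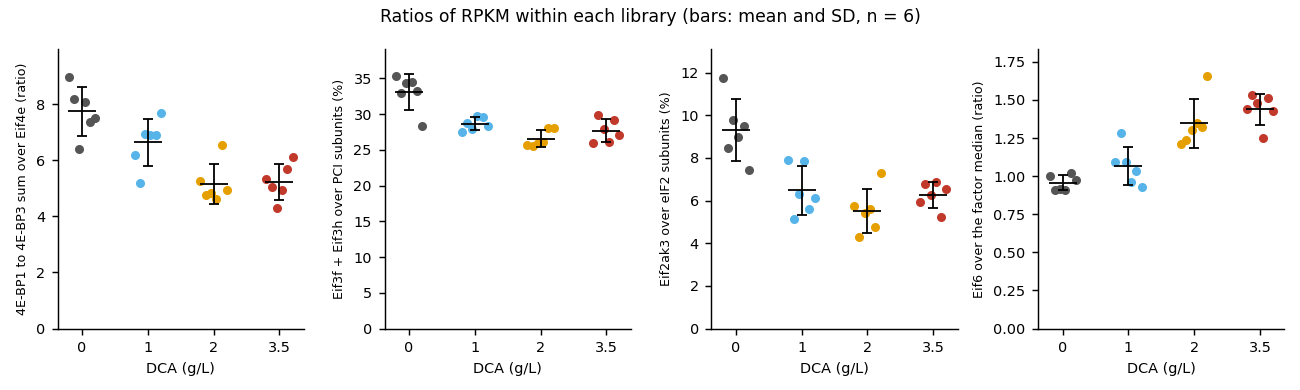
Ratios of RPKM within each of the 24 libraries by DCA dose in g/L, with mean and SD of 6 libraries as bars and axes from 0: the 3 eIF4E-binding protein genes over Eif4e, Eif3f and Eif3h over the PCI subunits in percent, Eif2ak3 over the eIF2 subunits in percent, and Eif6 over the median of the 53 genes. The means from control to 3.5 g/L are 7.74, 6.63, 5.16 and 5.23 for the first, 33.1, 28.6, 26.6 and 27.7% for the second, 9.31, 6.49, 5.52 and 6.26% for the third, and 0.955, 1.07, 1.35 and 1.44 for the last.

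Over dose, the steps were unequal. Between 1 and 2 g/L, 32 of the 53 genes rose and 0 fell, where 22.7% of all tested genes rose and 5.63% fell, and the median log2 fold was 0.18, beside 0.07 over all tested genes. At 2 g/L 17 genes lay wholly above the 1 g/L range and 0 wholly below it, where 9.11% and 2.11% of all tested genes did so. The median-ratio scale left 13 rising and 2 falling (Eif4b and Eif4ebp3), where 12% of all tested genes rose and 10.7% fell. Among L2 libraries alone, with 3 at 1 g/L and 6 at 2 g/L, 4 rose and Eif4ebp3 fell, where 6.62% of all tested genes rose and 2.39% fell. Between 2 and 3.5 g/L, Eif1 rose and Eif2ak2 and Eif2b5 fell, where 4.79% of all tested genes rose and 5.54% fell. Libraries at 3.5 g/L lay wholly above those at 2 g/L for 1 gene (Eif1) and wholly below for 2 (Eif2b5 and Eif4a3), where 2.11% and 2.02% of all tested genes did so. The median log2 fold over this step was −0.06, beside −0.01 over all tested genes. On the deposited scale, the highest of the 4 dose means was that at 2 g/L for 39 of the 53 genes. It was at 3.5 g/L for 8, at 1 g/L for 3 and in control for 3. This count was not made over all tested genes. Over all tested genes the median log2 fold over control was 0.12 at 2 g/L and 0.10 at 3.5 g/L, beside 0.32 and 0.23 for the 53 genes. On the median-ratio scale it was −0.0015 and −0.0038 over all tested genes, beside 0.16 and 0.10 for the 53. Whether a peak at 2 g/L is particular to these factors was not tested. Of the genes called at some dose on the deposited scale, 12 rose at all 3 doses and 25 at 2 and 3.5 g/L alone. At 2 g/L alone 6 rose (Eif2ak2, Eif2b5, Eif2s3y, Eif3i, Eif4a3 and Eif4enif1). The shares of these patterns over all tested genes were not computed, and by single dose 8.35%, 41.9% and 38.6% of all tested genes rose at 1, 2 and 3.5 g/L. For a gene called at 2 and not at 3.5 g/L, the step between these doses was itself called only for Eif2ak2 and Eif2b5.

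Genes acting beside and after initiation were taken from lists of the pathway's other members with symbols up to Olfr272, where the deposited table stops. Their median log2 folds at 3.5 g/L were 0.19 for elongation, 0.19 for termination and recycling, 0.11 for initiation proteins without an Eif name, 0.14 for the TOR and MAP kinase arms, 0.14 for the ATF4 programme and 0.31 for mitochondrial factors, beside 0.10 over all tested genes. Counts in these lists stand beside a background of 41.9% of all tested genes rising and 10% falling at 2 g/L, and 38.6% rising and 12.9% falling at 3.5 g/L, on the deposited scale. On the median-ratio scale that background was 21.3% and 21.1% at 2 g/L, and 23.5% and 23.3% at 3.5 g/L. Means are given with SD over 6 libraries per dose. Of 13 elongation factors and modifying enzymes, 2 rose at 1 g/L, 8 rose at 2 g/L, 7 rose at 3.5 g/L and 0 fell at any dose, while the median-ratio scale left 4 rising and 1 falling at 2 g/L and 5 and 4 at 3.5 g/L, and quantile normalization 3 and 0, then 7 and 3. Hbs1l, which helps free stalled ribosomes, averaged 13.4 ± 0.764 RPKM at 3.5 g/L, against 8.55 ± 0.746 RPKM in control livers (log2 fold 0.59, SE 0.05, adjusted p = 3.12e-09). Dph5, an enzyme of the diphthamide mark on eEF2, averaged 2.88 ± 0.237 RPKM at 3.5 g/L, against 1.79 ± 0.209 RPKM in control livers (log2 fold 0.48, SE 0.07, adjusted p = 2.25e-06). Dph1, another enzyme of that mark, averaged 5.28 ± 0.594 RPKM at 3.5 g/L, against 3.43 ± 0.420 RPKM in control livers (log2 fold 0.50, SE 0.08, adjusted p = 9.36e-06). Of 6 termination and recycling factors, 2 rose at 1 g/L, 4 rose at 2 g/L and 3 rose at 3.5 g/L, and the median-ratio scale gave 2 and 3 at the upper doses. Etf1, the release factor that reads stop codons, averaged 16.3 ± 0.918 RPKM at 3.5 g/L, against 10.1 ± 1.05 RPKM in control livers (log2 fold 0.64, SE 0.07, adjusted p = 3.74e-08). Denr, which acts on post-termination small subunits, averaged 4.41 ± 0.232 RPKM at 3.5 g/L, against 3.51 ± 0.198 RPKM in control livers (log2 fold 0.26, SE 0.05, adjusted p = 7.97e-05). Abce1, the ATPase that splits ribosomes, averaged 17.2 ± 1.30 RPKM at 3.5 g/L, against 13.6 ± 1.12 RPKM in control livers (log2 fold 0.32, SE 0.06, adjusted p = 0.000126).

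Initiation proteins without an Eif name include cap-binding, silencing and ABC proteins. Of 23 tested, 1 rose at 1 g/L, 11 rose and 2 fell at 2 g/L, and 10 rose and 1 fell at 3.5 g/L, but 4 rose and 5 fell at 2 g/L and 5 rose and 5 fell at 3.5 g/L under the median-ratio scale, and 3 and 5, then 3 and 4 under quantile normalization. Over all tested genes on the deposited scale 41.9% rose at 2 g/L and 38.6% at 3.5 g/L. Ago2, the effector of microRNA silencing, averaged 4.39 ± 0.185 RPKM at 3.5 g/L, against 2.98 ± 0.404 RPKM in control livers (log2 fold 0.44, SE 0.05, adjusted p = 4.95e-07). Abcf2, an ABC protein related to the eIF2 partner Abcf1, averaged 11.1 ± 0.750 RPKM at 3.5 g/L, against 8.67 ± 0.417 RPKM in control livers (log2 fold 0.32, SE 0.05, adjusted p = 1.50e-05). Ncbp1, the large subunit of the nuclear cap-binding complex, averaged 5.70 ± 0.466 RPKM at 3.5 g/L, against 4.46 ± 0.370 RPKM in control livers (log2 fold 0.30, SE 0.06, adjusted p = 0.000145). Of 23 genes of the TOR and MAP kinase arms that act on initiation, 1 rose and 1 fell at 1 g/L, 10 rose and 2 fell at 2 g/L, and 9 rose and 3 fell at 3.5 g/L, whereas the median-ratio scale gave 5 and 6 at 2 g/L and 3 and 4 at 3.5 g/L, and quantile normalization 6 and 7, then 1 and 4. Beside these, 41.9% of all tested genes rose and 10% fell at 2 g/L, and 38.6% rose and 12.9% fell at 3.5 g/L. Lamtor4, a subunit of the lysosomal TOR anchor, averaged 18.1 ± 1.84 RPKM at 3.5 g/L, against 12.6 ± 1.25 RPKM in control livers (log2 fold 0.50, SE 0.08, adjusted p = 8.97e-06). Ddit4, an inhibitor of TOR complex 1, averaged 0.673 ± 0.116 RPKM at 3.5 g/L, against 2.05 ± 0.551 RPKM in control livers (log2 fold −0.85, SE 0.13, adjusted p = 1.09e-05). Mtor itself averaged 7.82 ± 1.18 RPKM at 3.5 g/L, against 5.68 ± 0.482 RPKM in control livers (log2 fold 0.39, SE 0.09, adjusted p = 0.000848), a rise that was not called under quantile normalization.

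Of 24 tested genes of the ATF4 programme, which eIF2 phosphorylation turns on, 2 rose and 1 fell at 1 g/L, 12 rose and 3 fell at 2 g/L, and 9 rose and 4 fell at 3.5 g/L. Members of the programme with symbols after Olfr272, where the deposited table stops, are not among the 24. Under the median-ratio scale 6 rose and 4 fell at 2 g/L, and 6 rose and 7 fell at 3.5 g/L, with 5 and 3, then 5 and 8 under quantile normalization. The deposited-scale background was 41.9% rising and 10% falling at 2 g/L, and 38.6% rising and 12.9% falling at 3.5 g/L. Atf3, a stress-induced transcription factor, averaged 1.49 ± 0.237 RPKM at 3.5 g/L, against 0.237 ± 0.0695 RPKM in control livers (log2 fold 1.00, SE 0.10, adjusted p = 1.90e-08). Gdf15, a secreted stress signal, averaged 3.24 ± 0.796 RPKM at 3.5 g/L, against 0.703 ± 0.318 RPKM in control livers (log2 fold 1.32, SE 0.16, adjusted p = 3.39e-07). Herpud1, which helps degrade proteins of the endoplasmic reticulum, averaged 43.2 ± 14.96 RPKM at 3.5 g/L, against 130.2 ± 40.4 RPKM in control livers (log2 fold −1.58, SE 0.22, adjusted p = 2.86e-06). The other falls at 3.5 g/L were those of Dnajc3, an inhibitor of the eIF2 kinases that is also on the list of initiation proteins, Chac1, a glutathione-degrading enzyme, and Mthfd2, a mitochondrial folate enzyme. Of 8 mitochondrial factors, 2 rose at 1 g/L and 6 at 2 and at 3.5 g/L, with 5 at each upper dose under the median-ratio scale, and under the quantile scale 3 rose and 1 fell at 2 g/L, and 5 rose and 1 fell at 3.5 g/L. Mtif2, the mitochondrial initiation factor that carries the initiator tRNA, averaged 7.42 ± 0.266 RPKM at 3.5 g/L, against 5.02 ± 0.279 RPKM in control livers (log2 fold 0.49, SE 0.05, adjusted p = 3.84e-08). Mtrf1, a mitochondrial release factor, averaged 2.46 ± 0.205 RPKM at 3.5 g/L, against 1.69 ± 0.0870 RPKM in control livers (log2 fold 0.36, SE 0.07, adjusted p = 0.000222). Gfm1, a mitochondrial elongation factor, averaged 23.3 ± 2.28 RPKM at 3.5 g/L, against 18.3 ± 1.20 RPKM in control livers (log2 fold 0.33, SE 0.07, adjusted p = 0.000306).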

How the data were processed

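RNA was sequenced from 24 mouse liver samples, 6 at each of 4 doses. Per the labels' protocols, stranded total RNA libraries were made after removal of ribosomal RNA. CASAVA, STAR 2.4, Partek and the build mm10 are named, with no role for each, per the submitters' processing notes. The authors deposited RPKM in 1 table of the whole series, in which zeros stand as 1e-04, and how genes were annotated or strand was used was not given in the sources used here. Of its lines, 13 with symbols turned into dates and 1 incomplete last line (Olfr272) were left out. Gene symbols after that line were not analysed here.

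Genes that reached 0.5 RPKM in 6 or more libraries entered the test on log2(RPKM + 1) with limma 3.58.1 in R 4.3.3, fitting 1 mean per dose over 24 libraries with a level-dependent spread, two-sided, with Benjamini-Hochberg adjustment and a threshold of 0.05. The test was also run on simulated data, where 92 to 96% of 1.5-fold and 97 to 99% of 2-fold changes were recovered over the comparisons. Between 8 and 14 of 6340 unchanged genes were called. Recovery of smaller changes, like those of most genes here, was not measured. Depth was estimated from steps between low deposited RPKM values. Over 776 selected genes, 8081 of 8081 values lay within a fraction of 0.02 of a whole number of reads, a result that the selection favours. The total has an interquartile range of 19000000 to 28600000 reads over genes. Counts were not recovered for all genes. Promoters came from RefSeq (GRCm38.p6) and positions from GENCODE M21.

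In each complex, values per dose are given for up to 4 called genes with the smallest adjusted p at 2 or 3.5 g/L, for any that moved against its group, and for the eIF2 kinases, Eif4e, the binding proteins and the scaffolds. Up to 3 called genes are named per list. The genes, lists and ratios were chosen with earlier results of these data known. Alternatives were a pseudocount of 0.1, no filter or 1 RPKM, median-ratio factors, quantile normalization, the title tag as a term or within 1 tag, and leaving out each library.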

Additional observations from a re-analysis of the deposited data

Results flagged for a closer look

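For each of the 53 tested genes and 4 doses, the highest and lowest of the 6 libraries were set against the others by Dixon's gap test. Of 212 sets, 11 passed, where chance gives about 1 in 20. Eif1 in library 77 at 2 g/L stood at 65.0 RPKM, above 49.0 to 54.8 RPKM in the others. In library 75 at 2 g/L, 3 genes were highest: Eif2b5 at 10.9 RPKM (others 9.82 to 10.1), Eif2d at 9.68 RPKM (others 7.53 to 8.31) and Eif4a3 at 16.9 RPKM (others 14.7 to 15.4). Library 75 was also high over all tested genes, with a median log2 difference from control of 0.19 (others at 2 g/L 0.09 to 0.13). In library 101 at 3.5 g/L, Eif1ax was lowest at 10.4 RPKM (others 12.2 to 13.0) and Eif2ak3 was lowest at 2.41 RPKM (others 3.32 to 3.59). Eif4enif1 in library 99 at 3.5 g/L was low at 3.17 RPKM (others 3.56 to 3.77). Eif3m in library 49 at 1 g/L was low at 14.2 RPKM (others 17.9 to 20.0). Among control libraries, Eif2s3x was low in library 3 at 12.8 RPKM (others 14.7 to 15.8), Eif3f was low in library 8 at 12.0 RPKM (others 14.0 to 15.0) and Eif4h was high in library 7 at 25.1 RPKM (others 22.9 to 23.5). Libraries 101, 49 and 3 had the lowest median over all tested genes at their doses (0.07, −0.02 and −0.05).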

How the results depend on the processing

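A pseudocount of 0.1, no filter on low values and a filter of 1 RPKM left each count of called genes within 1.5 times the one reported, with the exception that a pseudocount of 0.1 and a filter of 1 RPKM each also called Eif4ebp3 lower between 1 and 2 g/L (1 falling, against 0). Median-ratio library factors gave 2 falling at 1 g/L, 5 falling at 2 g/L, 22 rising and 8 falling at 3.5 g/L, and 15 called between 1 and 2 g/L. Quantile normalization gave 2 falling at 1 g/L, 28 rising and 5 falling at 2 g/L, 19 rising and 9 falling at 3.5 g/L, 12 called between 1 and 2 g/L and 5 between 2 and 3.5 g/L. With the title tag as a term, 1 rose at 1 g/L, 14 rose and 1 fell at 2 g/L, and 15 were called between 1 and 2 g/L; within 1 tag, 1 rose at 1 g/L and 5 were called between 1 and 2 g/L. Called genes that changed sign were Eif4b at 2 g/L (log2 fold −0.0056 under median-ratio factors and −0.0323 under quantile normalization), Eif4enif1 at 2 g/L (−0.0084 and −0.0169), Eif4g1 at 3.5 g/L (−0.0132 and −0.0083), Eif2b1 at 3.5 g/L (−0.013 under quantile normalization) and Eif2s3y at 2 g/L (−0.0377 with the tag). The cause was not tested. Leaving out 1 library gave 7 to 16 rising and 0 to 1 falling at 1 g/L, with 7 without control library 3, 42 to 43 and 1 to 2 at 2 g/L, 34 to 38 and 1 to 2 at 3.5 g/L, 24 to 32 called between 1 and 2 g/L, and 2 to 4 between 2 and 3.5 g/L. The falling count at 2 g/L was 1 without control library 3 or 2 g/L library 74 or 77. It was 2 at 3.5 g/L without control library 8 or 3.5 g/L library 101, and 1 at 1 g/L without control library 8 or 1 g/L library 52. In comparisons with control, calls lost without 1 library were those at 1 g/L of Eif5a (control 3, 5, 6, 8 or 1 g/L 50 to 54; adjusted p = 0.0504 to 0.0831), Eif2b4 (control 3, 4, 5, 7 or 1 g/L 49, 52, 54; 0.0538 to 0.080), Eif2a (control 3, 5, 8 or 1 g/L 50, 53, 54; 0.0507 to 0.0725), Eif3e (control 3 or 1 g/L 52, 54; 0.0571 to 0.0601) and Eif4b (control 3 or 1 g/L 52; 0.0527 to 0.0533). At 2 g/L Eif4enif1 was lost without control 4, 7 or 2 g/L 75, 77 (0.0608 to 0.0657). At 3.5 g/L those of Eif4g1 (control 3, 4, 5 or 3.5 g/L 97, 100, 102; 0.0505 to 0.0906), Eif4ebp1 (control 3, 8 or 3.5 g/L 100, 102; 0.0508 to 0.0637) and Eif3b (3.5 g/L 97, 100, 102; 0.0514 to 0.0546) were lost. Eif2ak2 between 2 and 3.5 g/L was lost without 2 g/L 73, 75 or 3.5 g/L 98, 99, 101, 102 (0.0522 to 0.0784). Between 1 and 2 g/L, calls were lost when 1 library was left out for Eif4g3 (1 g/L 49, 50, 51, 52, 54 or 2 g/L 73, 75, 76, 77; 0.0512 to 0.105), Eif3e (1 g/L 49, 50, 51, 53 or 2 g/L 74, 75, 76, 78; 0.0564 to 0.126), Eif2s2 (1 g/L 49, 51, 53 or 2 g/L 73, 74, 75, 78; 0.0549 to 0.112), Eif2ak2 (1 g/L 49, 52, 53 or 2 g/L 73, 75; 0.0601 to 0.0987), Eif1ad (1 g/L 51, 52, 53 or 2 g/L 75, 78; 0.051 to 0.0637), Eif2b3 (1 g/L 51, 53 or 2 g/L 74, 75; 0.0527 to 0.0615), Eif5b (1 g/L 49, 51 or 2 g/L 75, 76; 0.0512 to 0.0918), Eif2b1 (1 g/L 49, 53 or 2 g/L 78; 0.0505 to 0.0642) and Eif4a1 (1 g/L 49, 53 or 2 g/L 75; 0.0502 to 0.0535). No paired analysis was possible because no replicate number is shared between doses. Without the filter on low values, Eif5a2 was tested and called lower at 2 g/L, at 0.0425 to 0.0851 RPKM, against 0.0739 to 0.133 RPKM in control livers (log2 fold −0.05, SE 0.02, limma adjusted p = 0.0394).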
